A study of Sus scrofa with 6 samples.

Results

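The genes described here encode the proteins of the cytosolic ribosome and the factors that start and carry out protein synthesis on it. They were taken by symbol: every gene whose symbol begins with RPL or RPS and a digit, other than the RPS6K kinases, or with EIF or EEF. This gave 66 of the 17627 genes in the table, 26 ribosomal protein genes, 35 initiation factor genes and 5 elongation factor genes. Only 10384 of the 17627 gene identifiers (58.9%) could be paired with a symbol, so these are not all the genes of the kind. RPL3, its muscle paralogue RPL3L, RPS6, EEF1A1, EEF1A2, EIF2S1 and EIF5A had no row under their symbol and were not analysed here. All 66 members were above 0 in all 6 libraries and all passed the filter on low values, which asked for 1 FPKM or more in at least 3 libraries.

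The libraries were made from longissimus dorsi, the long back muscle, of Wannanhua pigs, a local Chinese breed, and of Yorkshire pigs, a lean commercial breed. There were 3 libraries of each breed, all labelled as 5 months old, while the design text of the series speaks of piglets. No treatment or allele is named in the labels. The labels do not say that the libraries of a breed came from separate animals, so the p-values speak only of the spread among libraries, part of which may be technical. FPKM, the unit of level used here, counts fragments per unit of transcript length, with a correction for library size, and so can be compared between genes. The deposited count values, here called scaled counts, sum to between 16373268 and 19251335 per library. Scaled counts per FPKM did not follow these sums for EIF4A1 (25.3 to 25.6), the member in which this ratio varied least. The highest library was 1.01-fold the lowest for EIF4A1, but 1.27-fold for EIF3M and 1.65-fold for EIF2AK2. Judged by members in which this ratio was steady, the deposited FPKM appear to share the library scaling of the scaled counts. Fold changes are differences of log2(FPKM + 1), Wannanhua minus Yorkshire, and a gene is called at a limma adjusted p under 0.05.

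A ribosome is built from a small subunit, which reads the mRNA, and a large subunit, which joins the amino acids, and each holds its own set of proteins. Initiation factors bring the small subunit and the first tRNA to the capped end of an mRNA, and elongation factors then deliver the tRNAs and move the ribosome along. The mRNAs of ribosomal proteins and of several elongation factors begin with a pyrimidine tract through which mTOR signalling controls their translation. In skeletal muscle, protein synthesis is a main determinant of fibre growth, and phosphorylation of EIF4EBP1 and EEF2 are familiar readouts of it. The series asks which muscle genes differ in expression between the breeds.

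In summed FPKM as deposited the ribosomal protein genes were lower in Wannanhua muscle, though not as a share of the FPKM of all genes. The sum over the 26 genes was 12335, 12013 and 12160 FPKM in Wannanhua 1, 2 and 3, and 18274, 13926 and 14427 FPKM in Yorkshire 1, 2 and 3. The breeds did not overlap, and the Yorkshire mean was 1.28-fold the Wannanhua mean. Yorkshire 1 stood above all others, and without it the ratio was 1.16. As a share of the summed scaled counts of all tested genes, the ribosomal protein genes took 0.913% to 0.932% in Wannanhua and 0.956% to 1.26% in Yorkshire. As a share of summed FPKM the breeds overlapped, at 1.18% to 1.55% in Wannanhua and 0.998% to 1.25% in Yorkshire. Between 16.2% and 50.3% of the summed FPKM belonged to 3 genes in each library, and that share was higher in each Yorkshire library than in each Wannanhua library.

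**Figure D1:**
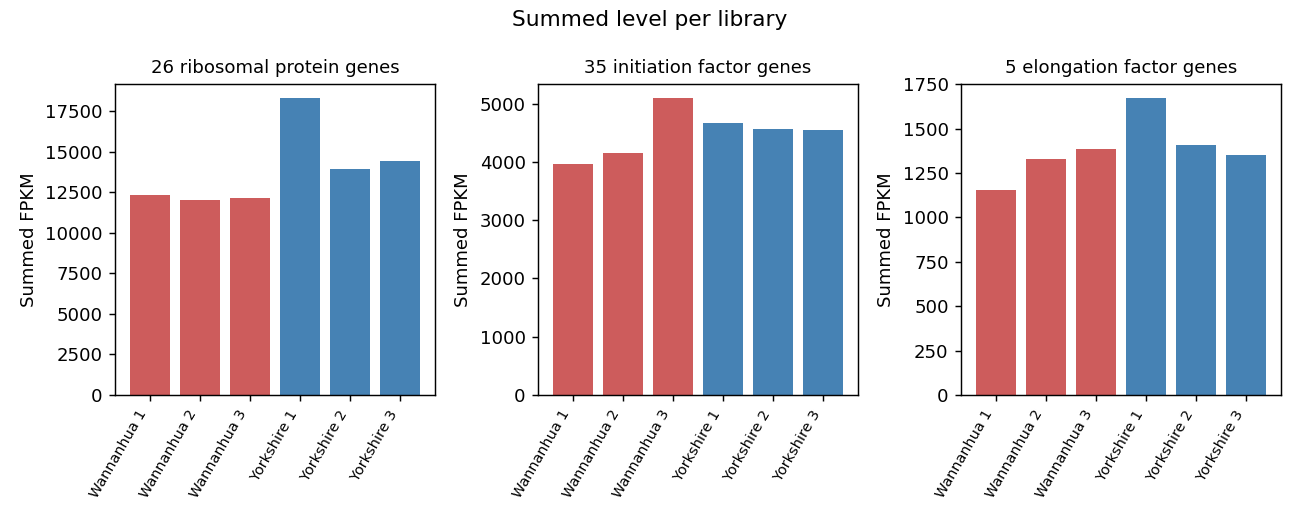
Summed FPKM of the 26 ribosomal protein, 35 initiation factor and 5 elongation factor genes in each library (bars; red Wannanhua, blue Yorkshire; each axis starts at 0). In the ribosomal panel the 3 Wannanhua libraries lie between 12013 and 12335 FPKM, below all Yorkshire libraries (as a share of the FPKM of all genes the breeds overlap), while in both factor panels the breeds overlap.

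No single ribosomal protein gene was called. Across all 11791 genes tested, 360 were called, which is 3.05% (208 higher, 1.76%, and 152 lower, 1.29%). At an unadjusted limma p under 0.05, which 22.1% of all genes reached, 4 ribosomal protein genes lay lower and 0 higher, where 7.53% of all genes lay lower and 14.6% higher. The log2 fold change was negative for 25 of the 26, against 37.4% of all genes, and its median was -0.22, against 0.12 over all genes. In 13 of the 26 (50.0%) every Wannanhua library lay below every Yorkshire library, as it did for 9.63% of all genes; the reverse held for 0 of the 26, and for 20.3% of all genes (29.9% in either direction). With every library brought to the same summed FPKM, an alternative that moves the median of all genes to 0.66, the ribosomal median turned positive at 0.42. Of the 26, 25 lay below the median of all genes there, but 1 factor per library shifts nearly all genes alike, so that count could hardly change. After quantile normalization the ribosomal median was -0.20, and 22 of the 26 lay below the median of all genes. These genes are known to be expressed together, so their counts are not independent, and in bulk muscle fewer cells of a type cannot be told apart from less RNA per cell.

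RPS28 (ENSSSCG00000013597), a small protein of the small subunit near the mRNA exit, had the highest mean FPKM of the members and the lowest fold change among ribosomal proteins. Its FPKM was 1235, 1306 and 1335 in Wannanhua and 2632, 2043 and 2110 in Yorkshire. The breeds did not overlap, and Yorkshire 1 was the highest. The Yorkshire mean of 2262 ± 322 was 1.75-fold the Wannanhua mean of 1292 ± 51.3 (SD, n = 3), with a log2 fold change of -0.80 ± 0.20 (SE; limma adjusted p = 0.0811). RPS16 (ENSSSCG00000020817), whose tail reaches the tRNA at the decoding site, stood at 612, 617 and 841 FPKM in Wannanhua and 1181, 1096 and 930 in Yorkshire. Wannanhua 3 lay nearest to the Yorkshire libraries for this gene, and the log2 fold change reached -0.64 ± 0.22 (SE; limma adjusted p = 0.149). RPS21 (ENSSSCG00000021825), a small-subunit protein needed to mature its RNA, stood at 459, 515 and 493 FPKM in Wannanhua and 967, 619 and 637 in Yorkshire. Again the breeds did not overlap (log2 fold change -0.57 ± 0.23, SE; limma adjusted p = 0.205), and Yorkshire 1 was well above the other libraries.

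The next lowest were RPS4X, RPL38 and RPS23. RPS4X, the X-linked form of a small-subunit protein, ran from 353 to 407 FPKM in Wannanhua and from 476 to 563 in Yorkshire (log2 fold change -0.45). RPL38, a large-subunit protein known for its part in the translation of Hox mRNAs, ran from 309 to 388 FPKM in Wannanhua and from 413 to 620 in Yorkshire (-0.45). RPS23, a decoding-centre protein, ran from 598 to 854 FPKM in Wannanhua and from 858 to 1267 in Yorkshire (-0.44). None of the breeds' ranges overlapped for these genes, though for RPS23 the gap between the breeds was small. RPS9, RPL29, RPL27 and RPL5 were also without overlap, with log2 fold changes from -0.38 (RPS9) to -0.31 (RPL5).

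Ribosomal proteins at the other end of the order differed little between the breeds. RPL11 (log2 fold change -0.025), which with RPL5 and the smallest ribosomal RNA binds MDM2 when ribosome assembly is disturbed, stood at 548, 591 and 460 FPKM in Wannanhua and 637, 490 and 502 in Yorkshire. RPS12 (-0.036) stood at 1228, 1137 and 934 FPKM in Wannanhua and 1313, 996 and 1074 in Yorkshire. RPS3 (-0.078), which lines the mRNA entry and also acts in DNA repair, stood at 1155, 1229 and 1085 FPKM in Wannanhua and 1423, 1086 and 1172 in Yorkshire. In each of these 3 the breeds overlapped, and Yorkshire 1 was the highest library. RPL4, RPL14, RPS3A, RPS13 and RPS18 overlapped as well, with log2 fold changes from -0.26 (RPS18) to -0.18 (RPL4). RPL5, the partner of RPL11, did not overlap, at 648 to 764 FPKM in Wannanhua and 793 to 980 in Yorkshire.

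**Figure D2:**
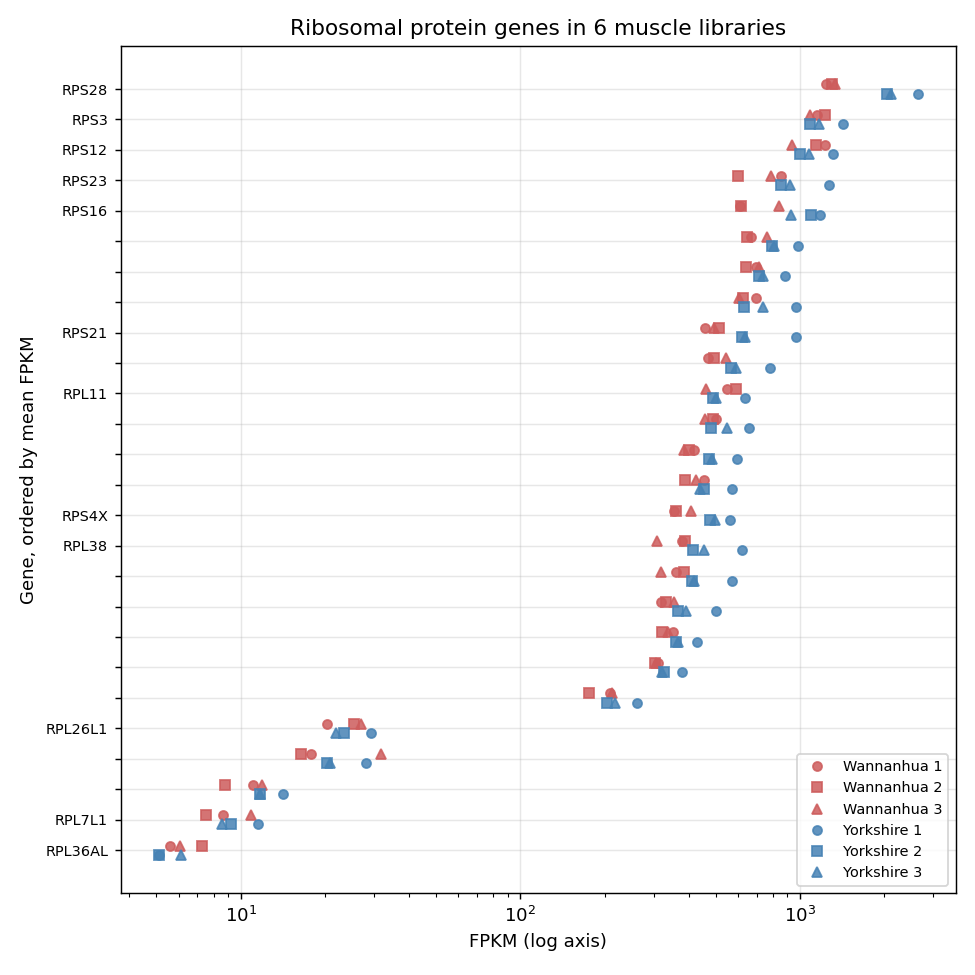
FPKM (log axis) of the 26 ribosomal protein genes in each library, ordered by mean FPKM; red marks are Wannanhua and blue marks Yorkshire libraries, and the shape gives the library number. Names are given for the genes chosen by rule; the blue circle, Yorkshire 1, is the highest mark in 24 of the 26 rows, and the 5 paralogues lie far below the 21 subunit proteins.

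Both subunits showed the pattern in FPKM as deposited, and all their genes but RPS28 turned positive with every library at the same summed FPKM. All 7 large-subunit genes had a negative fold change as deposited, with a median of -0.31, and 4 of them did not overlap between breeds. All 14 small-subunit genes also did, with a median of -0.29, and 9 did not overlap. Over all genes, 37.4% were negative and 9.63% lay lower without overlap. At the same summed FPKM in every library all 21 lay below the median of all genes, a count that 1 factor per library could hardly change. After quantile normalization 18 of the 21 did. The 3 lowest fold changes, of RPS28, RPS16 and RPS21, were of small-subunit genes. The 21 subunit genes spanned an 8.33-fold range of mean FPKM, from RPS13 to RPS28, although each subunit holds 1 copy of nearly every protein.

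FPKM values of very short genes rest on a large length correction. RPS21 had 0.916 to 1.09 scaled counts for each FPKM and RPS28 had 3.43 to 3.79, while RPL4 had 25.5 to 26.3. The sources used here do not say how the authors set the length, so the high rank of the shortest genes may depend on it. The comparison between breeds depends less on it, since most of a gene's length correction cancels between libraries. Part of it did not cancel for RPS21, at 0.982 to 1.09 scaled counts per FPKM in Wannanhua and 0.916 to 0.950 in Yorkshire. RPS28 (3.55 to 3.79 and 3.43 to 3.46), RPS16 and RPL38 also did not overlap in this. For these genes FPKM thus gives a wider gap between breeds than scaled counts do. RPL7L1 (86.2 to 95.3 and 95.4 to 99.9) and RPS27L lay the other way. The fold changes of the members from scaled counts differed from those from FPKM by a median of 0.035, and had the same sign in 63 of 66. The largest difference was 0.24, for EEFSEC. Both values come from the same reads, so this is no separate check of the breed comparison.

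The 5 genes named as paralogues of ribosomal proteins were far less abundant and did not separate the breeds. RPL26L1, RPS27L, RPL10L, RPL7L1 and RPL36AL had mean levels from 5.87 (RPL36AL) to 24.6 FPKM (RPL26L1), and the lowest subunit gene, RPS13, had 213 FPKM. Their median log2 fold change was -0.11, and all 5 overlapped between breeds. RPL36AL was the only ribosomal gene with a positive fold change (0.18), at 5.60, 7.28 and 6.05 FPKM in Wannanhua and 5.09, 5.10 and 6.11 in Yorkshire. RPL7L1 and RPL26L1 had log2 fold changes of -0.11 and -0.038. Ribosomal protein genes have many processed copies in mammalian genomes, and how reads that match several places were counted is not given, so the levels of close copies such as RPL26L1 and RPL36AL are uncertain.

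Yorkshire 1 carried part of the ribosomal pattern. It was the highest library in 24 of the 26 ribosomal genes, and in 21 of the 21 subunit genes. How often it was the highest over all genes was not counted. Yorkshire 1 also differed as a whole library, with the fewest genes at 1 FPKM or more (10726, against 11491 to 11979). It had the lowest median FPKM of tested genes (5.31, against 6.27 to 7.29), and 3 genes held 50.3% of its summed FPKM. Without it the ribosomal median was -0.10, 19 of the 26 were negative, and 13 lay lower without overlap. Of all genes in that set of libraries, 43.8% were negative and 16.7% lay lower without overlap, with a median of 0.063. Leaving out any other library gave medians between -0.29 and -0.19, with 23 to 25 negative and 13 to 17 lower without overlap. Of all genes, 32.9% to 41.0% were negative and 10.8% to 16.2% lower without overlap in those sets of libraries. The Wannanhua libraries shared the lowest place among them, with 7, 10 and 8 of the 26 genes. Within a breed, the median coefficient of variation of the ribosomal genes was 8.30% in Wannanhua and 14.8% in Yorkshire.

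Initiation factors showed no common direction. Of the 35, EIF2D was called higher in Wannanhua and none lower. At an unadjusted limma p under 0.05, 6 lay higher and 2 lower, where all genes had 14.6% higher and 7.53% lower. Without overlap 7 lay higher and 3 lower, where all genes had 20.3% higher and 9.63% lower. The median log2 fold change was 0.023, with 19 positive and 16 negative, against a median of 0.12 and 37.4% negative over all genes. The summed level was 3970, 4154 and 5087 FPKM in Wannanhua and 4673, 4567 and 4538 in Yorkshire, so the breeds overlapped. Wannanhua 3 set the upper end: it was the highest library in 15 of the 35, and without it the median of the 35 was -0.051. The sign of this median also depended on the scaling, at -0.019 after quantile normalization and 0.63 at the same summed FPKM in every library. EIF1B, EIF2A, EIF4A3, EIF4G2 and EIF4H, not described further, overlapped between breeds, with log2 fold changes from -0.23 (EIF4G2) to 0.22 (EIF4A3).

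**Figure D3:**
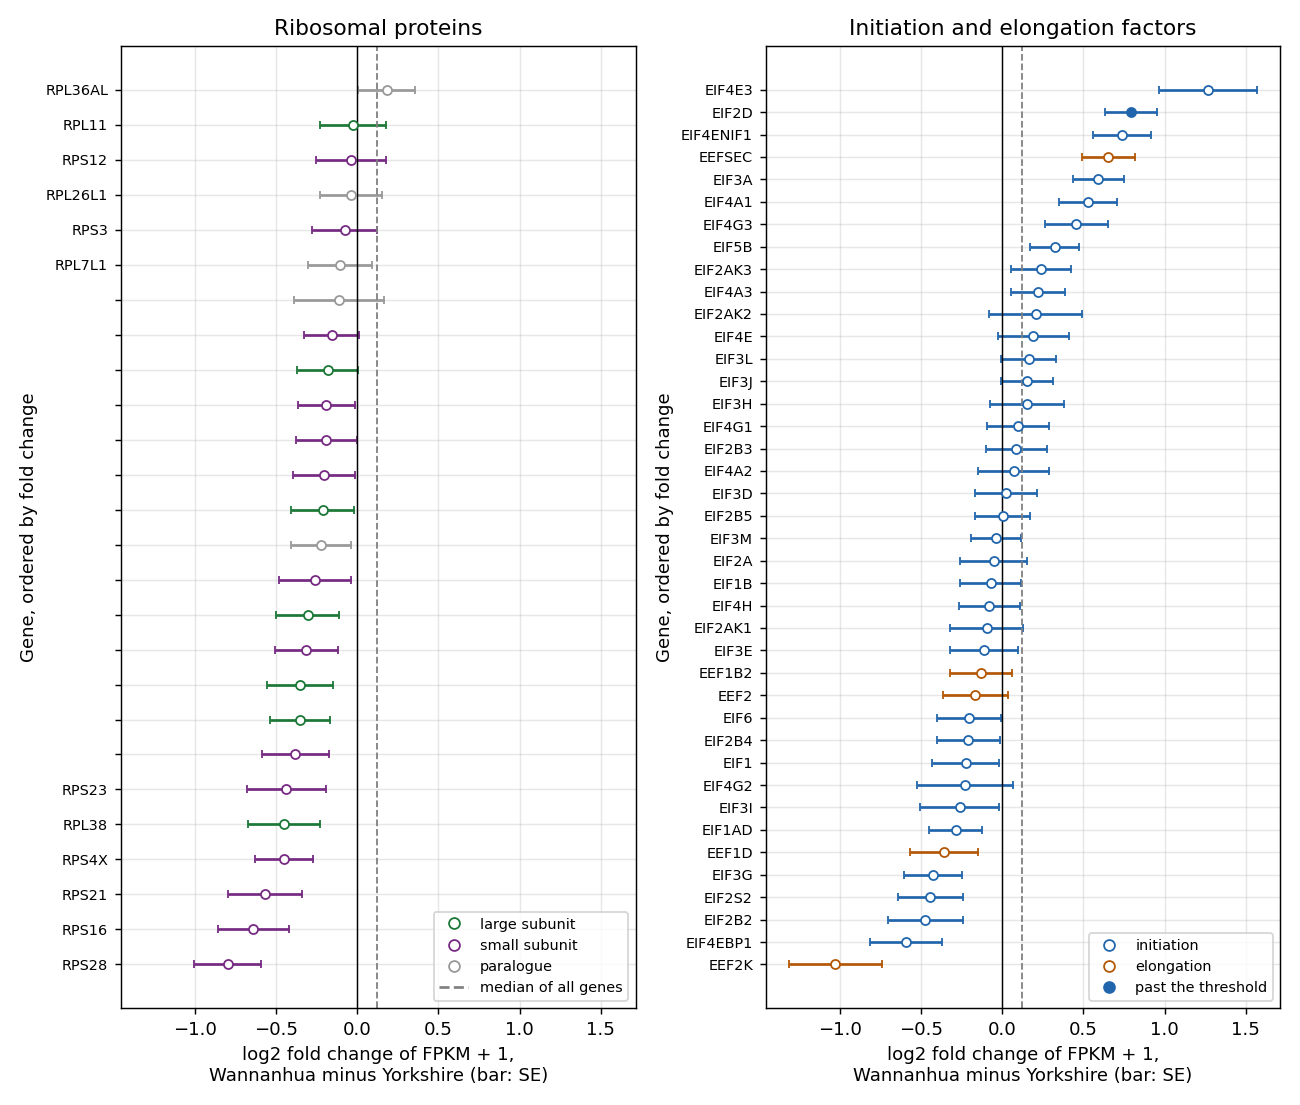
Log2 fold change (Wannanhua minus Yorkshire, log2 of FPKM + 1) of each member with its standard error, ribosomal proteins left (named where chosen by rule) and factors right; the dashed line is the median of all tested genes, 0.12. Of the ribosomal genes 25 lie left of the dashed line, and EIF2D is the filled point past the threshold. With every library brought to the same summed FPKM the ribosomal median turns positive (0.42), where the median of all genes is 0.66.

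EIF2D (ENSSSCG00000015648), which can place tRNA on the small subunit without EIF2 and helps to recycle it after termination, was the only member called. Its FPKM was 21.8, 19.4 and 23.4 in Wannanhua and 12.9, 11.6 and 11.5 in Yorkshire. All Wannanhua libraries lay well above all Yorkshire libraries, and within each breed the values were close. The Wannanhua mean of 21.6 ± 2.04 was 1.80-fold the Yorkshire mean of 12.0 ± 0.78 (SD, n = 3), with a log2 fold change of 0.79 ± 0.16 (SE; limma adjusted p = 0.0492). The call lay at the threshold: over the alternatives the limma adjusted p ran from 0.00979 to 0.182, and it was lost on leaving out any of the 6 libraries (0.0675 without Yorkshire 1 to 0.182 without Yorkshire 3).

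Several genes of the cap-binding step had positive fold changes without passing the threshold. EIF4E3 (ENSSSCG00000011516), an EIF4E relative that binds the cap but not as EIF4E does, had the highest fold change of all members. It stood at 21.5, 20.8 and 40.4 FPKM in Wannanhua and 10.5, 13.3 and 7.88 in Yorkshire. Wannanhua 3 lay far above the other Wannanhua libraries, which in turn lay above all Yorkshire libraries, and the log2 fold change reached 1.27 ± 0.30 (SE; limma adjusted p = 0.0706). EIF4ENIF1 (ENSSSCG00000010030), the transporter that carries EIF4E into the nucleus and to P-bodies, ran from 8.66 to 11.9 FPKM in Wannanhua and stood at 5.39, 6.14 and 5.60 in Yorkshire. The gap between breeds was wide (log2 fold change 0.74 ± 0.18, SE; limma adjusted p = 0.0716). EIF4G3, another scaffold, ran from 97.9 to 127 FPKM in Wannanhua and from 68.5 to 89.1 in Yorkshire, a log2 fold change of 0.46 (limma adjusted p = 0.224).

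The main cap-binding genes overlapped between breeds. EIF4E, the cap-binding protein itself, stood at 34.8, 31.4 and 44.0 FPKM in Wannanhua and 29.8, 26.7 and 40.1 in Yorkshire (log2 fold change 0.19). EIF4G1, its principal scaffold, stood at 81.1, 89.8 and 117 FPKM in Wannanhua and 84.2, 91.5 and 89.9 in Yorkshire (0.098). EIF4EBP1 (ENSSSCG00000022301), which blocks EIF4E until mTOR phosphorylates it, stood at 89.3, 95.0 and 78.5 FPKM in Wannanhua and 153, 152 and 99.1 in Yorkshire. For this repressor the breeds did not overlap, but Yorkshire 3 lay close to Wannanhua 2, and the log2 fold change reached -0.59 ± 0.22 (SE; limma adjusted p = 0.181). The ratio of EIF4EBP1 to EIF4E in FPKM was 2.56, 3.02 and 1.78 in Wannanhua and 5.14, 5.67 and 2.47 in Yorkshire, which overlapped (exact permutation test, two-sided, p = 0.3, as after adjustment over the 3 ratios tested; the smallest p this design allows is 0.1). The 3 ratios were chosen after seeing the data.

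The RNA helicases of this step differed widely in level. EIF4A2 was far the more abundant, with a mean 35.9-fold that of EIF4A1, and stood at 748, 724 and 1069 FPKM in Wannanhua and 789, 825 and 766 in Yorkshire. EIF4A1 stood at 27.7, 23.9 and 30.0 FPKM in Wannanhua and 21.2, 15.9 and 18.6 in Yorkshire (log2 fold change 0.53; limma adjusted p = 0.149). The ratio of EIF4A1 to EIF4A2 was thus 0.0370, 0.0330 and 0.0280 in Wannanhua and 0.0268, 0.0193 and 0.0243 in Yorkshire. The breeds did not overlap in this ratio, which does not depend on the scaling of a library. An exact permutation test (two-sided) gave p = 0.1, the smallest this design allows (0.15 after Benjamini-Hochberg adjustment over the 3 ratios). The ratio was chosen after seeing the data, which that adjustment does not cover, so this p lends no support. The 2 genes are close relatives, so shared reads could have been split between them.

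EIF3, the largest initiation factor, holds many subunits, and 9 were measured. EIF3A (ENSSSCG00000010679), its core scaffold, stood at 53.4, 52.8 and 59.2 FPKM in Wannanhua and 34.1, 38.7 and 36.0 in Yorkshire. The libraries of each breed were close together and the breeds were apart, with a log2 fold change of 0.59 ± 0.16 (SE; limma adjusted p = 0.0880). EIF3G, a peripheral subunit that binds RNA, lay the other way, at 38.6, 42.5 and 43.8 FPKM in Wannanhua and 66.8, 49.8 and 53.5 in Yorkshire (log2 fold change -0.43; limma adjusted p = 0.215). The other 7 subunits, EIF3D, EIF3E, EIF3H, EIF3I, EIF3J, EIF3L and EIF3M, overlapped between breeds, with log2 fold changes from -0.26 (EIF3I) to 0.16 (EIF3L). Subunits of the complex spanned a 12.4-fold range of mean FPKM, from EIF3M to EIF3H.

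**Figure D4:**
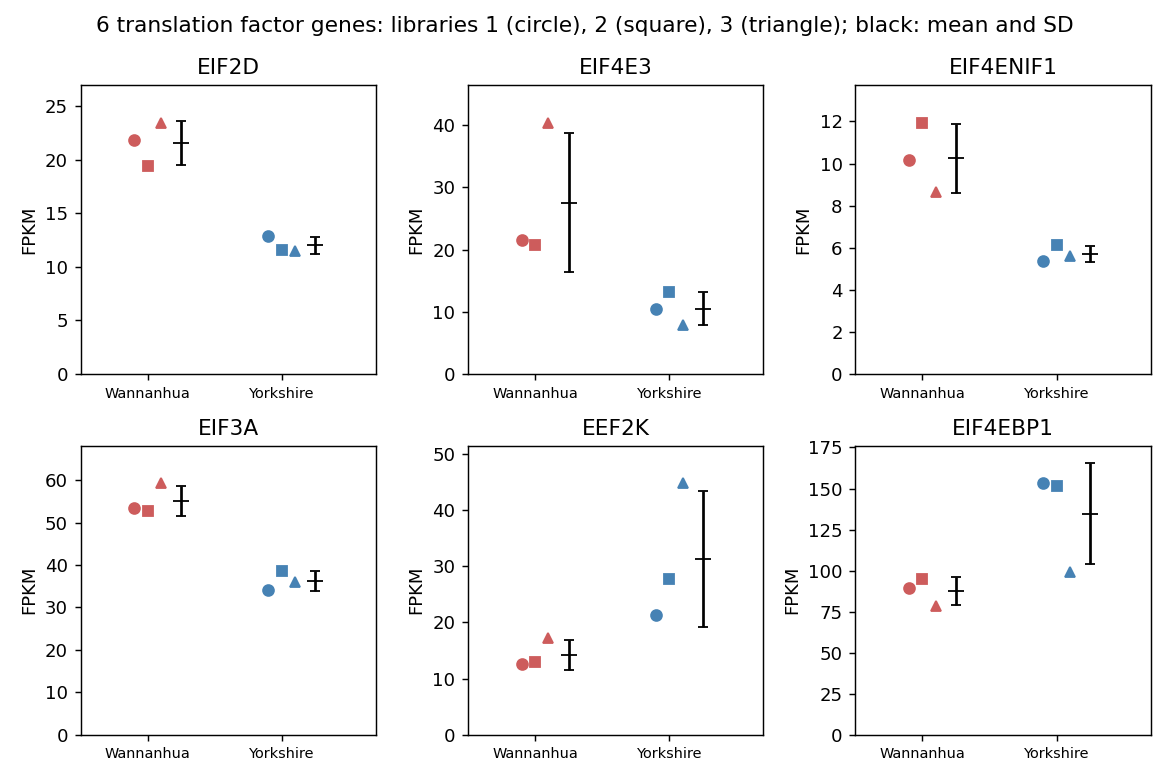
FPKM of 6 factor genes by library (points; circle, square and triangle are libraries 1, 2 and 3) with the mean and SD of each breed in black; each axis starts at 0. EIF2D, EIF4E3, EIF4ENIF1 and EIF3A lie higher in all Wannanhua libraries as deposited, EEF2K and EIF4EBP1 in all Yorkshire libraries; at the same summed FPKM in every library the EIF4EBP1 fold change turns to 0.064.

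In the EIF2 branch, which delivers the first tRNA, the values of every gene measured overlapped between breeds (EIF2D, described above, can act without EIF2). EIF2S2, the beta subunit of EIF2, stood at 92.2, 81.1 and 120.0 FPKM in Wannanhua and 142, 119.9 and 134 in Yorkshire (log2 fold change -0.44; limma adjusted p = 0.246). EIF2B2, a subunit of the exchange factor that recharges EIF2 with GTP, stood at 12.9, 14.3 and 20.3 FPKM in Wannanhua and 27.3, 19.6 and 19.7 in Yorkshire (-0.47; limma adjusted p = 0.274). The other EIF2B subunits measured, EIF2B3, EIF2B4 and EIF2B5, had log2 fold changes from -0.21 (EIF2B4) to 0.088 (EIF2B3). Of the kinases that inhibit EIF2 under stress, EIF2AK3 (PERK, which answers to the endoplasmic reticulum) stood at 1.57, 2.09 and 1.44 FPKM in Wannanhua and 1.04, 1.23 and 1.60 in Yorkshire. EIF2AK1 and EIF2AK2 also overlapped, and EIF2AK2 in Yorkshire 1, at 0.193 FPKM, had the lowest scaled count of any member in any library, 7.65.

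EIF1 was the most abundant factor gene, and neither it nor the late initiation genes were called. EIF1, which helps to choose the start codon, stood at 1043, 1077 and 1390 FPKM in Wannanhua and 1391, 1354 and 1328 in Yorkshire (log2 fold change -0.23). Only Wannanhua 3 reached the Yorkshire level. EIF5B, the GTPase that joins the subunits, stood at 20.7, 20.8 and 20.8 FPKM in Wannanhua and 17.8, 15.7 and 15.9 in Yorkshire, without overlap (0.32; limma adjusted p = 0.260). EIF6, which keeps the large subunit from joining too early, stood at 22.7, 33.0 and 29.4 FPKM in Wannanhua and 36.9, 31.7 and 29.2 in Yorkshire (-0.20). EIF1AD, an EIF1A-like gene, did not overlap either, at 2.38 to 3.02 FPKM in Wannanhua and 3.50 to 3.62 in Yorkshire (-0.29).

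None of the 5 elongation factor genes was called. The core genes overlapped between breeds: EEF2, which moves the ribosome by a codon, stood at 627, 784 and 737 FPKM in Wannanhua and 906, 787 and 718 in Yorkshire (log2 fold change -0.17). EEF1B2 and EEF1D, subunits of the factor that recharges EEF1A, had log2 fold changes of -0.13 and -0.36. EEF1B2 ran from 375 to 439 FPKM in Wannanhua and from 402 to 504 in Yorkshire, and EEF1D from 132 to 188 and from 185 to 237. For all 3, as for the ribosomal proteins, Yorkshire 1 was the highest library. The medians of these genes are relative: at the same summed FPKM in every library the elongation median of -0.17 became 0.49, with 4 of the 5 genes below the median of all genes.

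The genes that act on EEF2 or on a special tRNA stood further apart. EEF2K (ENSSSCG00000007839), the calcium-dependent kinase that halts EEF2, stood at 12.6, 12.9 and 17.3 FPKM in Wannanhua and 21.2, 27.7 and 44.7 in Yorkshire. The breeds did not overlap and Yorkshire 3 was far above the rest. The Yorkshire mean of 31.2 ± 12.1 was 2.19-fold the Wannanhua mean of 14.3 ± 2.63 (SD, n = 3), with a log2 fold change of -1.03 ± 0.28 (SE; limma adjusted p = 0.0979). The ratio of EEF2K to EEF2 was 0.0201, 0.0165 and 0.0234 in Wannanhua and 0.0235, 0.0352 and 0.0623 in Yorkshire. Wannanhua 3 and Yorkshire 1 nearly touched, and the exact permutation test (two-sided) gave p = 0.1, the smallest this design allows (0.15 adjusted over the 3 ratios). This ratio too was chosen after seeing the data, so its p lends no support. EEFSEC (ENSSSCG00000011619), the factor that delivers selenocysteine tRNA, stood at 3.96, 4.26 and 4.02 FPKM in Wannanhua and 2.38, 2.44 and 1.90 in Yorkshire, without overlap (log2 fold change 0.65 ± 0.16, SE; limma adjusted p = 0.0785).

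**Figure D5:**
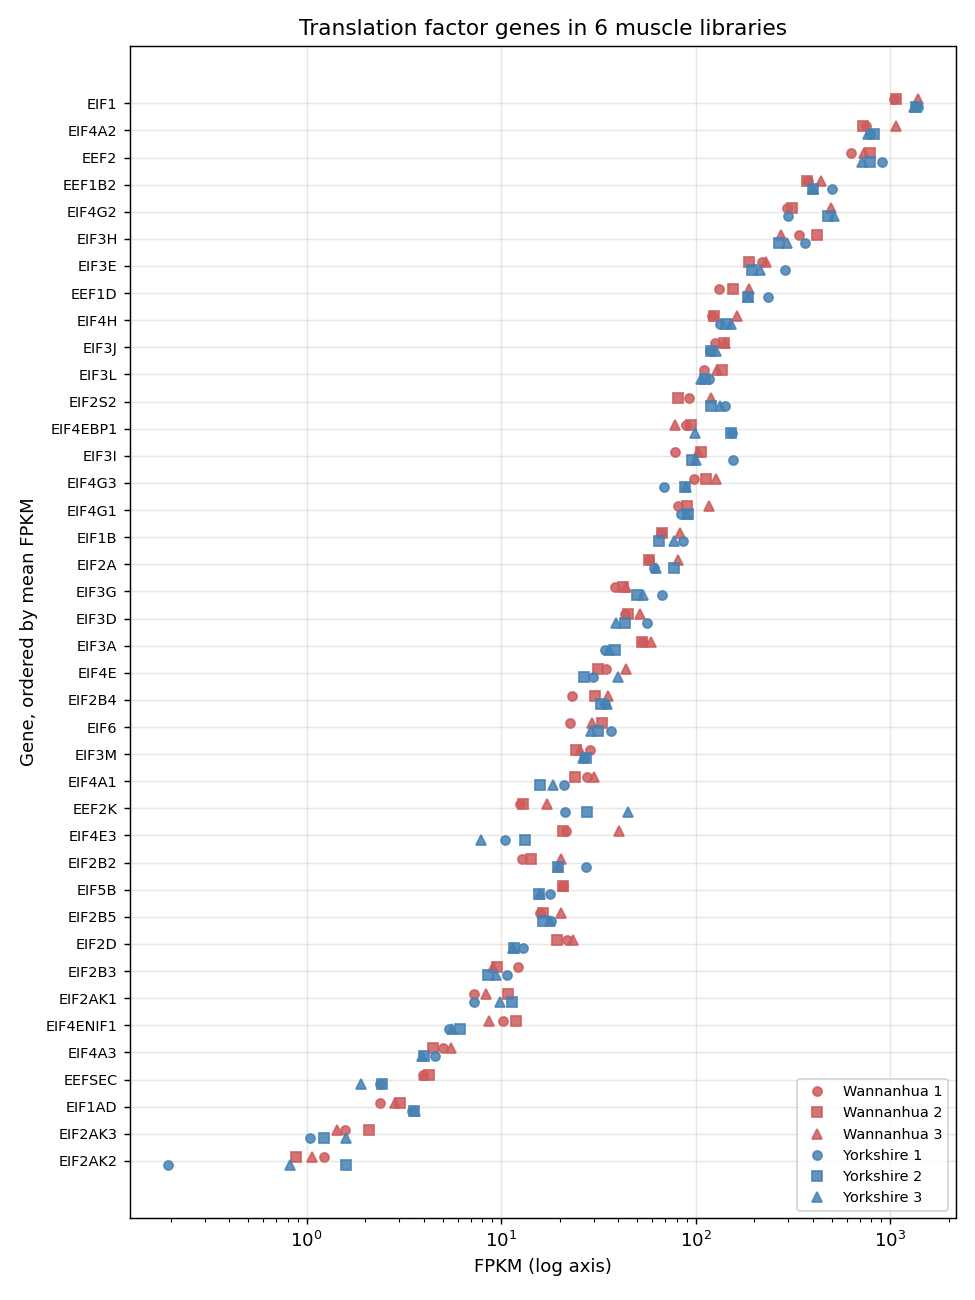
FPKM (log axis) of the 40 initiation and elongation factor genes in each library, ordered by mean FPKM; red marks are Wannanhua and blue marks Yorkshire libraries, and the shape gives the library number. EIF1 lies highest and EIF2AK2 lowest, and in contrast to the ribosomal genes no library is at the right end of nearly every row.

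Set against each other, the ribosomal proteins had a lower median than the factors. The difference of the medians was -0.20, from -0.22 for the 26 ribosomal genes and -0.016 for the 40 factors. It ran from -0.28 to -0.13 on leaving out each library, with -0.13 without Yorkshire 1, and was -0.18 at the same summed FPKM in every library. The ratio of the ribosomal sum to the factor sum, which needs no scaling between libraries, was 2.41, 2.19 and 1.88 in Wannanhua and 2.88, 2.33 and 2.45 in Yorkshire. Wannanhua 1 lay between Yorkshire 2 and Yorkshire 3, so the breeds overlapped in this ratio. The factor sum is led by EIF1, EIF4A2 and EEF2, the 3 factor genes with the highest mean FPKM. No test of the difference was made, since the members are not independent of each other.

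Ribosomal proteins whose symbols fall outside the rule added 4 genes with a row of 8 listed, and none was called. RPLP1 (ENSSSCG00000004970), an acidic stalk protein that recruits elongation factors, stood at 4116, 3621 and 4568 FPKM in Wannanhua and 7486, 7557 and 7141 in Yorkshire. That is a clear gap in which Yorkshire 1 does not stand out, with a log2 fold change of -0.86 ± 0.22 (SE; limma adjusted p = 0.0792). Its stalk partner RPLP2 overlapped, at 811, 912 and 510 FPKM in Wannanhua and 893, 500 and 582 in Yorkshire (0.18). RACK1, a signalling scaffold on the small subunit, and FAU, which encodes a small-subunit protein fused to a ubiquitin-like one, had log2 fold changes of -0.22 and 0.11.

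Other lists around translation lay near the median of all genes. Of 34 ribosome biogenesis genes tested, 1 was called higher and none lower, with a median log2 fold change of 0.12. This was NMD3 (ENSSSCG00000022952), the export adaptor of the large subunit, at 20.4, 19.8 and 17.0 FPKM in Wannanhua and 10.4, 8.45 and 10.3 in Yorkshire (log2 fold change 0.91 ± 0.17, SE; limma adjusted p = 0.0424). All Wannanhua libraries stood well above Yorkshire, but the call was lost without Wannanhua 1, Wannanhua 2 or any of the Yorkshire libraries. None was called of 21 mTOR pathway genes (median 0.22), 16 aminoacyl-tRNA synthetases (0.19), 12 other translation genes (0.14) and 4 genes that respond to uncharged tRNA (0.17). At an unadjusted limma p under 0.05, where 14.6% of all genes lay higher and 7.53% lower, 5 of the 34 ribosome biogenesis genes lay higher and 1 lower. At that p 3 of the 21 mTOR pathway genes and 2 of the 16 synthetases lay higher and none lower, so the shares at that p were near the background. By overlap, 20.3% of all genes lay higher without overlap and 9.63% lower. Among ribosome biogenesis genes 11 of the 34 lay higher without overlap and 1 lower, and among synthetases 6 of the 16 and 0. The mTOR pathway had 5 of the 21 higher and 2 lower, and the other translation genes 2 of the 12 and 0.

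The libraries also differed in what else they held. Fast-fibre markers (5 of 9 had a row) summed to 8513 to 26430 FPKM in Wannanhua and 33364 to 35639 in Yorkshire, and slow-fibre markers (5 of 8) to 10788 to 43293 and 5638 to 17286. Both lists stood at high levels in every library, all labelled as skeletal muscle. Nerve markers (3 of 4; SNAP25 at 0 in 3 libraries) summed to 7.76 to 11.6 FPKM in Wannanhua and 0.885 to 5.53 in Yorkshire. The satellite cell list (3 of 4: MYF5, CHRNA1 and CALCR) summed to 5.28 to 6.60 and 0.749 to 4.69. CHRNA1 is also a gene of muscle fibres and overlapped between breeds, so that sum is not particular to satellite cells. MYF5 did not overlap, at 1.55 to 3.03 FPKM in Wannanhua and 0.234 to 1.49 in Yorkshire. The summed markers of fat (2 of 6), fibroblasts (5 of 6), endothelium (3 of 6), white blood cells (5 of 7), red blood cells (3 of 5; HBM at 0 in 2 libraries) and smooth muscle (3 of 4) overlapped between breeds. Of the tested genes in these sums, COL1A2, PTPRC and CD68 lay lower in Wannanhua without overlap, and none lay higher without overlap. COL1A2, a fibroblast marker, ran from 20.3 to 29.5 FPKM in Wannanhua and from 32.3 to 119 in Yorkshire. Yorkshire 1 had the lowest nerve, satellite cell and fat sums and the highest ribosomal sum. The part of fibre type or other cells in the ribosomal and factor results was not tested.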

How the data were processed

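RNA of 6 longissimus dorsi libraries was poly-A selected, fragmented and copied with random primers by a paired-end kit that does not mark strand, per the labels' protocols. Per the submitters' processing notes, build Sscrofa 10.2, TopHat2 2.0.6 and CASAVA 1.7 were used; the sources here do not name the counter, the annotation or the treatment of multiply matching reads. The authors deposited, per the file headers, FPKM and a count value per gene and library. The deposited count values are not whole, and are used as a scaled signal: between 99.70% and 99.82% of those above 0 were whole multiples of 1 step per library (within 0.01 of a read or a relative 1e-05), which was not enough for a count test. They sum to 16373268 to 19251335 per library. Mean scaled counts were at least 100 for 63 of the 66 members, with a median of 3266.

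Libraries were grouped by breed. The test was limma 3.58.1 (R 4.3.3; trend and robust) on log2(FPKM + 1), a pseudocount of 1 FPKM that understates changes of low genes, over 11791 genes with 1 FPKM or more in at least 3 libraries, adjusted by Benjamini-Hochberg over all of them; it was tested on simulated data. Left out were 7 genes listed at 0 in a library although they reach a scaled count of 10000 elsewhere. The 3 single ratios, chosen after seeing the data, used exact permutation tests. Members, lists and tests were chosen with earlier results of these data known. Genes named by rule were a fixed set (8 of 15 names had a row), members past the threshold, and in each family the 6 highest and 6 lowest fold changes and 4 most abundant; others are named where they are described, and some members are counted but not reported here by name. Genome positions and sequences are not used here. Libraries sharing a replicate number deviated together only weakly (correlations of 0.10, -0.012 and 0.11), though pairs of unlike number ran lower, from -0.13 to 0.021. The labels do not say that the numbers pair libraries, so the main fit has no block, and the block was run as an alternative.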

Additional observations from a re-analysis of the deposited data

How the results depend on the processing

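Of 513 values of 35 named results under alternatives, 458 kept their direction and side of the threshold. The 360 calls over all genes became 69 without a filter, 205 with the replicate block, 2353 at equal summed FPKM (chosen after seeing the data), and 11 to 504 on leaving out each library. The member count of 1 (EIF2D) became 0 with a pseudocount of 0.1 FPKM, without a filter, after quantile normalization, without trend and robust settings, with the replicate block (EIF2D limma adjusted p = 0.0865, within its range of 0.00979 to 0.182), after median centring (chosen after seeing the data) and without each library (0 to 0), and 8 at equal summed FPKM: EEFSEC, EIF2D, EIF3A, EIF4A1, EIF4E3, EIF4ENIF1, EIF4G3 and EIF5B, all higher. The related genes' count of 1 became 0 without a filter, after quantile normalization, with the replicate block and after median centring, 2 without trend and robust settings (NMD3, and RPLP1 lower), 18 at equal summed FPKM, and 0 to 1 on leaving out each library (ASNS, lower, without Yorkshire 1).

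The initiation median of 0.023 became -0.019 after quantile normalization, -0.14 after median centring, 0.63 at equal summed FPKM and -0.061 to 0.051 on leaving out each library, where the filter, applied anew, dropped 1 member in 3 of the 6 fits (-0.051 to 0.072 over all 35). The ribosomal median became -0.20 after quantile normalization, -0.38 after median centring and 0.42 at equal summed FPKM. The elongation median became 0.49 at equal summed FPKM. The difference of ribosomal and factor medians stayed negative under each alternative run. Calls split 138 higher and 200 lower after quantile normalization, and 131 and 236 after median centring, which move the median of all genes to 0.0042 and -0.034.

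Equal summed FPKM turned these log2 fold changes positive: EEF1B2 0.53, EEF1D 0.30, EEF2 0.49, EIF1 0.43, EIF2B2 0.16, EIF2S2 0.21, EIF3G 0.22, EIF4EBP1 0.064, EIF6 0.44, RPL11 0.63, RPL26L1 0.60, RPL38 0.21, RPL7L1 0.49, RPS12 0.62, RPS16 0.019, RPS21 0.090, RPS23 0.22, RPS3 0.58 and RPS4X 0.21. Quantile normalization turned EIF1 (0.028), RPL11 (0.082), RPS12 (0.30) and RPS3 (0.21). Median centring turned EIF4A2 (-0.087) and EIF4G1 (-0.061). On scaled counts (chosen after seeing the data) RPL26L1 was at 0.0062 and RPS12 at 0.0065. Leaving out a library turned EIF4A2 (range -0.11 to 0.17) and EIF4G1 (-0.051) without Wannanhua 3, RPL11 (range -0.10 to 0.095; 0.077 without Wannanhua 3, 0.095 without Yorkshire 1), RPL26L1 (range -0.12 to 0.081; 0.075 without Wannanhua 1, 0.081 without Yorkshire 1), RPL7L1 (range -0.24 to 0.0077; 0.0042 without Wannanhua 2, 0.0077 without Yorkshire 1), RPS12 (range -0.12 to 0.079; 0.077 without Wannanhua 3, 0.079 without Yorkshire 1) and RPS3 (range -0.16 to 0.034; 0.034 without Yorkshire 1). None of these fold changes was past the threshold, and the cause of each turn other than rescaling was not tested.

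With 2 libraries left in a breed, the fit pools the spread of the rest. Not run were the count tests with 2 scalings, since whole reads could not be taken from the deposited values, the shares of RPL3L and EEF1A2, and the promoter motifs. With 3 libraries a breed, an exact test of 1 value cannot go below p = 0.1, and members with few scaled counts, such as EIF2AK2, are the least precise.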

Other observations

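Factor genes had no library that led them as Yorkshire 1 led the ribosomal genes. Among the 35 initiation factors, Wannanhua 3 was the highest library for 15 and Yorkshire 1 for 10, while Wannanhua 1 was the lowest for 13. The median coefficient of variation of the factor genes within a breed was 16.0% in Wannanhua and 13.2% in Yorkshire.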
